A study of Mus musculus with 6 samples.

Results

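RGS proteins (regulators of G protein signalling) are described here through 7 genes, Rgs1, Rgs2, Rgs3, Rgs10, Rgs14, Rgs16 and Rgs19, which were listed by name and matched by symbol among 15445 genes with counts. RNA was sequenced from monoclonal transgenic CD4+ T cells of C57BL/6 mice, taken from spleen 5 days after infection with LCMV (lymphocytic choriomeningitis virus) and sorted on CD4, Thy1.1 and CD25. Thy1.1 is an allelic form of the Thy1 surface protein used to mark donor T cells, and CD25 is a chain of the receptor for interleukin-2. Both groups, CD25-high and CD25-low, had 3 libraries with the numbers 1 to 3, and they share the transgenic receptor, strain, tissue and infection. The labels do not say whether the libraries came from separate animals or from pools, so measures of spread and p-values refer to these libraries and may be partly technical. The 7 genes were chosen by name with the differences in counts between CD25-high and CD25-low libraries already known, so their values in that contrast are a description and support nothing.

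G protein-coupled receptors, among them the chemokine receptors, switch on heterotrimeric G proteins by loading the alpha subunit with GTP. RGS proteins bind the active alpha subunit through the RGS domain and speed up its GTP hydrolysis, which shortens the signal. In lymphocytes they are known for limiting the response to chemokines and so for setting how readily cells move into and out of tissue. Members differ in size, in added domains and in the alpha subunits they prefer.

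Total counts per library ranged from 16787233 to 23567066. Il2ra, which encodes CD25 and checks the sort, had 432 to 1536 CPM (counts relative to library size) where CD25 was high and 20.7 to 35.7 CPM where it was low. T cell markers were present, with a summed level of 2734 to 3697 CPM over 8 of 8 listed genes. The libraries numbered 1 stood apart from the others of their group: the chi-square per degree of freedom between libraries was 82.28 to 98.45 in pairs that included them, and 27.77 and 53.98 in the other pairs. Differences that rest on these libraries are therefore also given without them. Where 3 values are given for a group, they follow the library numbers 1, 2 and 3.

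Markers of B cells were near 0, with sums of 2.14 to 7.94 CPM (CD25-high) and 2.79 to 5.21 CPM (CD25-low) over 4 of 9 listed genes. Cd79a, Ms4a1, Pax5 and Blk were not analysed here. Plasma cell markers summed to 288 to 469 CPM (CD25-high) and 774 to 903 CPM (CD25-low), and nearly all of that was Ighm (means of 333 and 826 CPM), the constant region of the IgM heavy chain. Of the 6 listed, 4 had counts, and only Ighm was clearly lower in CD25-high cells. Igkc (13.7 and 7.04 CPM) and Jchain (1.24 and 0.328 CPM) had higher means there, and Sdc1 was level (0.877 and 0.848 CPM). Markers of monocytes and macrophages summed to 26.8 to 87.6 against 12.9 to 42.4 CPM, led by the integrin gene Itgam (means of 56.6 and 21.1 CPM). Of the 10 listed, 4 had counts. Csf1r (2.25 and 1.43 CPM) went the same way as Itgam, and Cd68 (5.23 and 6.47 CPM) and Lyz2 (0.219 and 0.469 CPM) went the other way. Regulatory T cell markers other than Il2ra summed to 305 to 442 against 447 to 648 CPM. Of these, Ctla4 (means of 225 and 241 CPM) and Ikzf2 (98.8 and 261 CPM) were the most abundant. Ikzf2 fell (log2 fold change -1.40 ± 0.22, edgeR adjusted p 0.0241), while Foxp3, the defining factor of regulatory T cells, had means of 3.97 and 1.65 CPM (1.27 ± 0.61, adjusted p 0.49), and Capg had 13.6 and 7.25 CPM (0.91 ± 0.42, adjusted p 0.458). The lists of CD8 T and NK cells, dendritic cells, neutrophils, and red cells and platelets each summed to at most 18.2 CPM in any library, with Cd8b1, Zbtb46, Cxcr2 and Alas2 the most abundant genes. In the same order, 4 of 6, 3 of 7, 4 of 8 and 2 of 10 listed genes had counts, so these sums cover only parts of the lists.

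Rgs10 was the member with the widest separation between the groups and the only one past the test's threshold. It is a small protein of few parts beyond its RGS domain and is known to act on alpha subunits of the Gi class. Its levels were 1.42, 1.54 and 3.55 CPM in the CD25-high set and 48.9, 31.3 and 26.6 CPM in the CD25-low set. All CD25-low libraries lay above all CD25-high libraries, and library 3 was the highest of the CD25-high and the lowest of the CD25-low set. The group means were 2.17 ± 1.20 and 35.6 ± 11.7 CPM (SD, n = 3 each), 16.4-fold lower in CD25-high cells, and the fitted log2 fold change was -4.03 ± 0.44 (SE). In the bulk RNA of a sorted population, fewer cells that transcribe the gene and less RNA per cell cannot be told apart.

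The counts behind these values were 25, 29 and 63 reads in CD25-high and 894, 735 and 644 reads in CD25-low libraries. The exact Poisson 95% interval of the highest CD25-high library was 2.73 to 4.55 CPM, and that of the lowest CD25-low library 24.6 to 28.8 CPM. These intervals cover counting error only. Within numbered pairs, the log2 difference of Rgs10 was -5.01, -4.26 and -2.87 for numbers 1, 2 and 3. Without both libraries numbered 1 it was -3.51 ± 0.41. Ighm was also lower in every CD25-high library, while B cell markers were near 0 in both groups, as given above; the part of Ighm-bearing cells in the Rgs10 difference was not tested.

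Promoter sequence is shown for Rgs10 and Rgs16, the members whose CD25-low libraries all lay above the CD25-high libraries, and for Rgs19, the most abundant member of CD25-high cells. Each is the 250 bases before a RefSeq start on GRCm38.p6 (for Rgs19, the most upstream of 3 starts), 5′ to 3′ on the strand of the gene. Capitals mark matches to the GC box GGGCGG on either strand.
Rgs10 (chr7:128418173-128418422, minus strand): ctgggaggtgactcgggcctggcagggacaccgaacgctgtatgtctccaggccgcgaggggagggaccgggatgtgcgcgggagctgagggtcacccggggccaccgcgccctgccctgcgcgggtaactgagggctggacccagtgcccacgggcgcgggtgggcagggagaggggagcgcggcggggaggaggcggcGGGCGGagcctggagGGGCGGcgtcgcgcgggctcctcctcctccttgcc
Rgs16 (chr1:153740103-153740352, plus strand): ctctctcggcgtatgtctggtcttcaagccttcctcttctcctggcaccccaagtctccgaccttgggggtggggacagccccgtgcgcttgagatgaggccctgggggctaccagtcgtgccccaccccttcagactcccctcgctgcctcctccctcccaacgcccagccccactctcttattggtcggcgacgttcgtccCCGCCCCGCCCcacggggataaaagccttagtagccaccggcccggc
Rgs19 (chr2:181693978-181694227, minus strand): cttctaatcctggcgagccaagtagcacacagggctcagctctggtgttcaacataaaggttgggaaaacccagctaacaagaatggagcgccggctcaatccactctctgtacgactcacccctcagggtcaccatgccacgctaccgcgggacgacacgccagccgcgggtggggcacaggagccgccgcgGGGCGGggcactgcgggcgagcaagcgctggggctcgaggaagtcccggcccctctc
All are rich in G and C, at 76.4%, 66.4% and 64.8%, against a median of 52.4% over 32851 windows of the same length, and they hold 27, 17 and 20 CpG dinucleotides against a median of 6. Rgs10 has 2 GC boxes, starting 50 and 35 bases before the start. Rgs16 has 2 that share 1 base, starting 47 and 42 bases before it on the opposite strand, and the Rgs19 window shown has 1. A GC box stood in 32.74% of all windows. The 3 windows shown held no match to GCGNGGGCG (EGR factors, 4.7% of all windows), TTCNNNGAA (STAT factors, 7.02%), TGANTCA (AP-1, 6.75%), CTTTGAT (TCF/LEF factors, 3.21%) or TATAAA (12.37%), each searched on both strands. Of the 7 members, 5 had a RefSeq promoter entry. The other Rgs19 windows have a GC content of 74.8% and 54.4%, and the former holds 2 GC boxes and a match to the EGR motif 98 bases before its start, sharing 5 bases with a GC box. The Rgs2 window held a match to the EGR motif 176 bases before its start, and both Rgs3 windows held TATAAA.

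**Figure D1:**
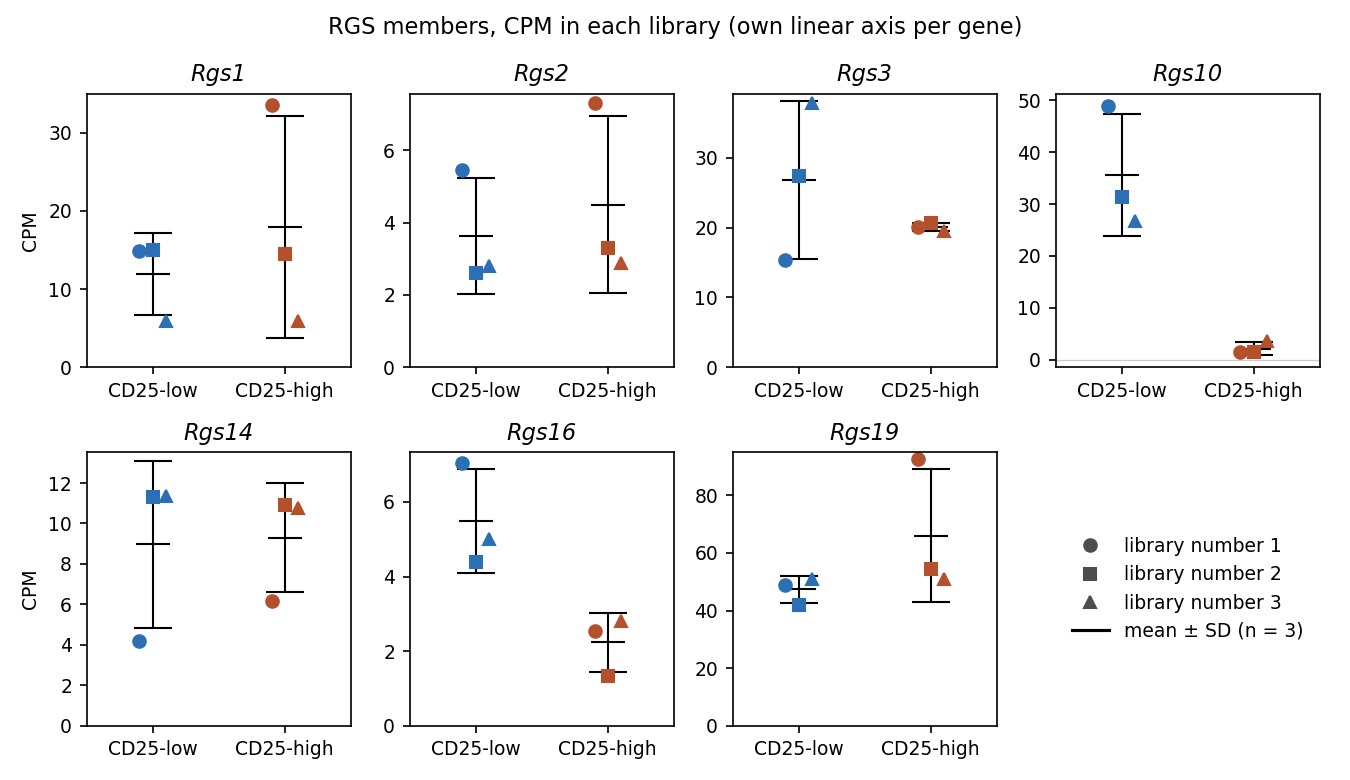
CPM of each member in the 6 libraries on a linear axis of its own, with symbols for the library number and black bars for the mean ± SD (n = 3). Rgs10 lies between 1.42 and 3.55 CPM where CD25 was high and between 26.6 and 48.9 CPM where it was low, whereas Rgs1, Rgs2, Rgs3 and Rgs14 overlap between the groups.

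Rgs10 (ENSMUSG00000030844) spans 128373621 to 128418758 of chromosome 7, minus strand (GRCm38, the assembly also called mm10). Within 250 kb on either side, 9 other genes were tested. By edgeR's quasi-likelihood test 0 of them passed an adjusted p of 0.05, beside 0.655% of all genes. With the replicate number as a block 0 passed, beside 4.63% of all genes, and 0 passed by DESeq2. At an unadjusted p under 0.05 there was 1, beside 11.1% of all genes. This was the inositol phosphatase gene Inpp5f (log2 fold change -0.74 ± 0.25), named after its value was seen. With so few neighbours, such counts do not set the region apart from all genes. The nearest coding gene, Tial1, which encodes an RNA-binding protein, had a log2 fold change of -0.27 ± 0.19. Gm15503, a noncoding transcript inside Rgs10 on the same strand, shares no exonic bases with it and had a mean of 1.82 CPM. Its log2 fold change, the lowest of the 9, was -2.19 ± 1.19 (edgeR adjusted p 0.549, and 0.105 with the block).

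Rgs14, the other member of the Rgs10 subfamily, also carries Ras-binding domains and a GoLoco motif that binds inactive Gi alpha subunits. Its levels were 6.18, 10.9 and 10.8 CPM in the CD25-high set and 4.21, 11.3 and 11.4 CPM in the CD25-low set. The lowest value of each group was that of the library numbered 1, and the groups overlapped. The log2 fold change was 0.05 ± 0.44 (SE), and it turned negative in 5 of 14 alternative fits, the lowest being -0.29. Rgs14 (ENSMUSG00000052087) spans 55369732 to 55384687 of chromosome 13 (plus strand).

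Rgs16, at a low level, was the other member whose CD25-high values all lay below its CD25-low values. Rgs16 acts on Gi and Gq alpha subunits and is known as an activation-induced gene of T cells. Its levels were 2.55, 1.33 and 2.82 CPM in the CD25-high set and 7.05, 4.39 and 5.00 CPM in the CD25-low set. The groups did not overlap, and library 2 was the lowest of each group. Counts were 45, 25 and 50 against 129, 103 and 121 reads. The log2 fold change was -1.29 ± 0.49 (SE) and did not pass the threshold in the fit without the block, with the block, or in any other alternative. Across 14 alternatives it ranged from -1.48 to -1.02. Rgs16 (ENSMUSG00000026475) spans 153740349 to 153745468 of chromosome 1 (plus strand) and shares 236 exonic bases with Gm28513 on the opposite strand, and as no strand setting is stated its counts are uncertain to that extent.

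Rgs1 and Rgs2 both lie on the minus strand of chromosome 1, Rgs1 (ENSMUSG00000026358) from 144242296 to 144249242 and Rgs2 (ENSMUSG00000026360) from 143999338 to 144004161, with 238.1 kb between them. Rgs1 is known for holding back chemokine-driven migration of activated lymphocytes, and Rgs2 prefers the Gq alpha subunit. Rgs1 levels were 33.6, 14.4 and 5.87 CPM in the CD25-high set and 14.9, 15.0 and 5.91 CPM in the CD25-low set. In number 1 the CD25-high library was the higher by a log2 difference of 1.16, and in numbers 2 and 3 the pair lay within 0.06. The fitted log2 fold change was 0.59 ± 0.57 (SE), and -0.04 without both libraries numbered 1. Rgs2 levels were 7.31, 3.30 and 2.88 CPM in the CD25-high set and 5.47, 2.60 and 2.81 CPM in the CD25-low set. The groups overlapped, the library numbered 1 was the highest in each, and the log2 fold change was 0.31 ± 0.54 (SE). Without CD25-high library 1 it was -0.23 for both Rgs1 and Rgs2.

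Rgs3 encodes forms of very different length, acts on Gi and Gq alpha subunits and can also bind G protein beta and gamma subunits. Its levels were 20.1, 20.7 and 19.6 CPM in the CD25-high set and 15.3, 27.3 and 37.8 CPM in the CD25-low set. The CD25-high libraries were nearly level (SD of 0.572 CPM), while the CD25-low libraries spread on both sides of them (SD of 11.3 CPM). The log2 fold change was -0.42 ± 0.32 (SE), -0.08 without CD25-low library 3, and -0.70 ± 0.27 without both libraries numbered 1. It passed the threshold in none of these fits. Rgs3 (ENSMUSG00000059810) spans 62559847 to 62704001 of chromosome 4 (plus strand).

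Rgs19, also known as GAIP, carries a cysteine string near its start that is modified with lipid, and it prefers Gi alpha subunits. Its levels were 92.6, 54.5 and 50.9 CPM in the CD25-high set and 49.0, 42.1 and 50.9 CPM in the CD25-low set. The lowest CD25-high value (50.875 CPM) and the highest CD25-low value (50.872 CPM) were practically equal, so the formal lack of overlap does not separate the groups. The log2 fold change was 0.48 ± 0.26 (SE), and 0.16 without CD25-high library 1. Rgs19 (ENSMUSG00000002458) spans 181688419 to 181693977 of chromosome 2 (minus strand).

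All 7 members passed the filter on low counts and were tested. By edgeR's quasi-likelihood test with Benjamini-Hochberg adjustment, 1 of the 7 passed an adjusted p of 0.05, Rgs10, which fell. Of all 12987 genes tested, 0.655% passed, 0.154% as higher and 0.501% as lower in CD25-high cells. With the replicate block the count was again 1, Rgs10, beside 4.63% of all genes (1.73% higher and 2.90% lower). The CPM ranges of the groups did not overlap for 3 members, Rgs10, Rgs16 and, by the margin just given, Rgs19, beside 16.9% of all genes (7.41% with CD25-high above and 9.54% with CD25-low above). The median log2 fold change was 0.05 over the members and 0.01 over all genes tested. Since the members were proposed from this contrast, nothing is read from these counts.

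**Figure D2:**
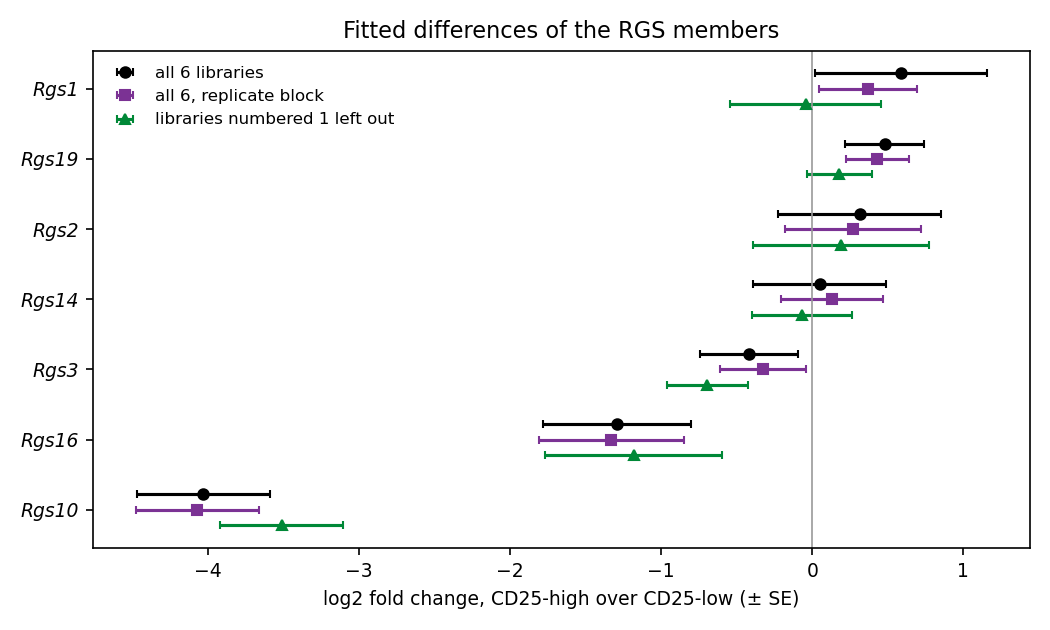
Log2 fold change of CD25-high over CD25-low cells (x axis, points ± SE) for each member, fitted on all 6 libraries, with the replicate number as a block, and without both libraries numbered 1. Rgs10 stays between -4.07 and -3.51, and Rgs1 moves from 0.59 to -0.04 when the libraries numbered 1 are left out.

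Levels of different members were compared per transcript length, as RPKM (CPM per kilobase of the longest coding transcript). In CD25-low cells Rgs10 was highest with 40.5 ± 13.3 RPKM, followed by Rgs19 with 31.3 ± 3.07 RPKM (SD, n = 3 each). These 2 did not differ beyond their spread, since Rgs10 was the higher in 2 of 3 libraries and their ranges overlapped. The next, Rgs3, lay apart from them at 5.71 ± 2.40 RPKM. Below it came Rgs14 with 3.81 RPKM, Rgs1 with 3.11 RPKM and Rgs16 with 2.34 RPKM, each overlapping its neighbour, and then Rgs2 with 1.20 RPKM, which lay below Rgs16 in all 3 libraries with no overlap.

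In CD25-high cells Rgs19 stood alone at the top with 43.7 ± 15.3 RPKM (SD, n = 3). Rgs1 (4.67 RPKM), Rgs3 (4.28 RPKM), Rgs14 (3.94 RPKM), Rgs10 (2.47 RPKM), Rgs2 (1.49 RPKM) and Rgs16 (0.955 RPKM) followed, and each of these neighbours overlapped the next. Rgs10 thus went from the first place in CD25-low to the fifth place in CD25-high cells. The place depends on the length used: with all annotated exonic bases merged, Rgs19 and Rgs10 had mean levels of 21.2 and 20.8 RPKM in CD25-low cells, so that their order turned, while Rgs10 was again the fifth in CD25-high cells.

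Taken as a share of the summed RPKM of the 7 members, Rgs10 made up 54.6%, 44.1% and 37.2% in CD25-low libraries 1, 2 and 3, and 1.96%, 3.36% and 8.06% in CD25-high libraries 1, 2 and 3. Rgs19 made up 31.9%, 34.5% and 41.4% in CD25-low libraries and 74.7%, 69.0% and 67.2% in CD25-high libraries 1, 2 and 3. As these are shares of a common sum, a lower Rgs10 by itself raises the share of Rgs19. The level of Rgs19 did not pass the threshold (log2 fold change 0.48 ± 0.26, edgeR adjusted p 0.552). The summed level was 102, 80.7 and 81.4 RPKM in CD25-low libraries 1, 2 and 3, and 82.0, 52.3 and 50.1 RPKM in CD25-high libraries 1, 2 and 3. CD25-high library 1, with the highest Rgs19, thus had a sum within the range of the CD25-low libraries, and the other CD25-high libraries lay below it.

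**Figure D3:**
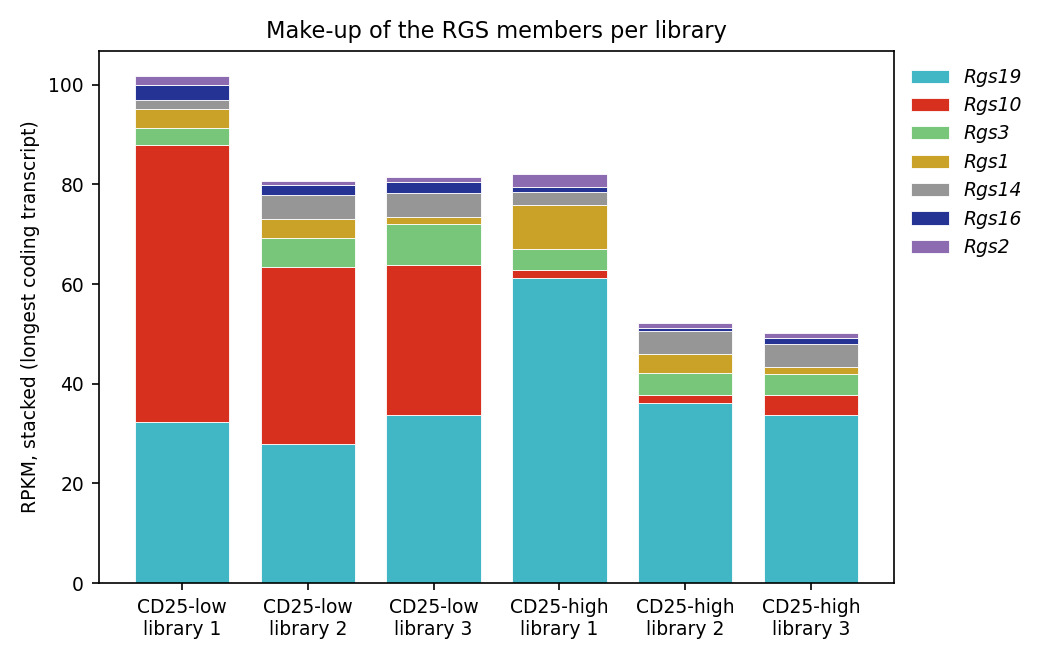
Stacked RPKM (y axis, from 0) of the 7 members in each library, by the length of the longest coding transcript. Rgs10 fills 37.2% to 54.6% of the bar in CD25-low and 1.96% to 8.06% in CD25-high libraries, and Rgs19 is the largest part in every CD25-high library.

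Variation that goes with the library number, apart from CD25, was tested as a measure that played no part in the choice of members. With the group in the model, the number term of edgeR passed an adjusted p of 0.05 for 1 of 7 members, Rgs1 (adjusted p 0.039), beside 3.63% of all genes. Rgs1 was lowest in library 3 of each group (5.87 CPM where CD25 was high, 5.91 CPM where it was low). Libraries 1 and 2 were level in the CD25-low set (14.9 and 15.0 CPM) but not in the CD25-high set (33.6 and 14.4 CPM). Library 3 thus lowers the mean of libraries 2 and 3. Rgs1 was higher in library 1 than in that mean by a log2 difference of 1.85 in CD25-high and 0.66 in CD25-low cells. Rgs2 was higher there by 1.22 and 0.99, and Rgs14 had differences of -0.80 and -1.41, but neither passed (adjusted p 0.355 and 0.245). For Rgs10 the same differences were -0.69 in CD25-high and 0.76 in CD25-low cells, opposite in sign (adjusted p 0.798).

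The profiles nearest to that of Rgs10 were sought among 5249 named coding genes with a mean of at least 20 CPM, by the root mean square difference of centred log2 CPM over the 6 libraries. The nearest was Egr2, an early growth response transcription factor, at 0.44 log2 units, followed by Nav2 (0.69), Sesn3, which encodes a stress-responsive sestrin (0.69), and Lpp (0.86). Their mean levels went from 48.1, 54.7, 50.1 and 254 CPM where CD25 was low to 3.69, 6.52, 5.10 and 36.6 CPM where it was high. The distance includes the difference between the groups, by which the members were chosen, so genes with a like fold change lie near. Over CD25-low libraries 1, 2 and 3, centred Rgs10 went down (2.53, 1.89 and 1.65) while Egr2 went up (1.63, 1.90 and 2.04). Among CD25-high libraries both were highest in library 3. For Rgs16 the nearest were Lpxn, which encodes the adaptor leupaxin (0.19 log2 units), the interferon-induced Oas1a (0.28), Ikzf2, which encodes the transcription factor Helios (0.34), and the guanylate-binding protein gene Gbp9 (0.34).

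**Figure D4:**
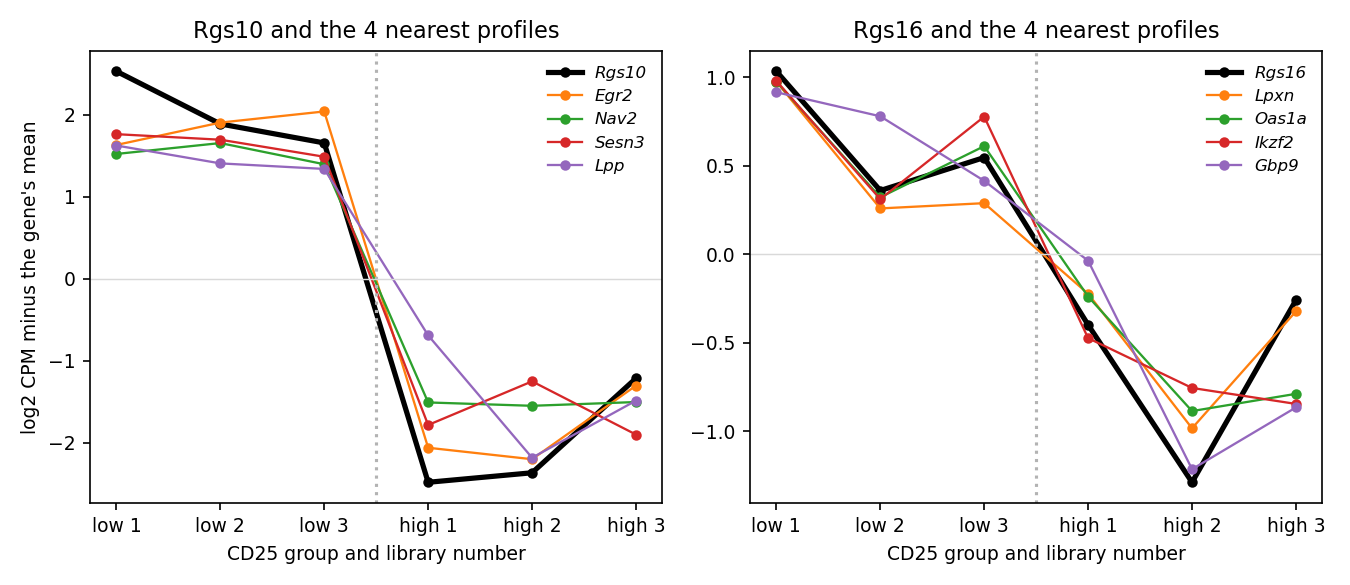
Centred log2 CPM (y axis) of Rgs10 and of Rgs16 (thick black) with their 4 nearest profiles over the 6 libraries, where lines only join the points of a gene. Egr2 lies nearest to Rgs10, at 0.44 log2 units, and Lpxn nearest to Rgs16, at 0.19 log2 units, by a distance that includes the difference between the groups.

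Other genes with an RGS or RGS-like domain did not pass. Of 29 listed, 19 had counts and 16 were tested. By edgeR 0 passed, beside 0.655% of all genes, and 0 passed with the block, beside 4.63%. By DESeq2 0 passed. At an unadjusted p under 0.05 there were 0, beside 11.1% of all genes. Their median log2 fold change was -0.21, against 0.01 over all genes tested. The smallest p-values were those of Arhgef11, a guanine nucleotide exchange factor (7.34 ± 1.97 against 12.2 ± 3.22 CPM, with a log2 difference of -0.73 ± 0.36 and an edgeR adjusted p of 0.494), and of the receptor kinase Grk6 (29.7 ± 8.23 against 43.1 ± 11.9 CPM, -0.54 ± 0.30, adjusted p 0.556). Arhgef11 shares 991 exonic bases with Lrrc71 on the opposite strand. The most abundant per length was Arhgef1, an exchange factor downstream of the alpha subunits G12 and G13, at 234 ± 72.6 against 248 ± 86.7 CPM. Of the RGS genes in that list, Rgs8 and Rgs9 were too low to be tested, and Rgs11, Rgs12 and Rgs20 were tested at group means between 0.601 and 1.85 CPM.

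Among heterotrimeric G protein subunits, on which RGS proteins act, 1 of 21 tested genes rose, beside 0.154% of all genes, and 20 did not pass. This was Gnai1, an alpha subunit of the Gi class, with 60, 41 and 102 reads in CD25-high libraries 1, 2 and 3, and 0, 0 and 2 reads in CD25-low libraries 1, 2 and 3. The ratio of pooled counts, scaled to library size, was 124 (exact 95% interval 33.8 to 1028, counting error only), at a level of 3.78 ± 1.81 CPM in CD25-high cells (SD, n = 3). The edgeR adjusted p was 0.0225. It was 0.158 without CD25-high library 3, and 0.0687, 0.12 and 0.0627 without CD25-low library 1, 2 or 3, so the call was lost in these 4 fits. The fitted log2 fold change, which depends on the prior count, was 6.72 in the fit of all libraries and 6.31, 6.30, 6.19 and 9.18 in these. The main Gi subunits of lymphocytes were at much higher levels: Gnai2 had 97.3 to 202 against 82.3 to 274 CPM, with a log2 fold change of -0.15 ± 0.40, and Gnai3 had 187 to 265 against 218 to 238 CPM, with 0.04 ± 0.20. Both were named after their values were seen. The most abundant subunit per length was Gnas, the Gs alpha subunit, at 286 ± 53.2 against 392 ± 27.6 CPM (-0.45 ± 0.20, edgeR adjusted p 0.431). With the replicate block, where 2.90% of all genes fell, the gamma subunit Gng2 fell (-0.78 ± 0.18, adjusted p 0.0287, against 0.443 without the block). Gng2 was named after its value was seen. It shares 897 exonic bases with Gm48283 on the opposite strand, and without both libraries numbered 1 it did not pass with the block (adjusted p 0.0816).

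Of 40 listed receptors, 29 were tested. By edgeR 1 fell, the protease-activated receptor F2rl1, with 0.340, 1.17 and 0.282 CPM in the CD25-high set and 10.2, 18.1 and 14.8 CPM in the CD25-low set (edgeR adjusted p 0.00797), and 28 did not pass. Of all genes, 0.501% fell. The log2 fold change of F2rl1 was -4.56 ± 0.59, and without CD25-low library 2 it was -4.36 ± 0.68 and no longer called (adjusted p 0.0636). With the replicate block 3 fell, beside 2.90% of all genes: F2rl1, the prostaglandin receptor Ptger2 (-1.51 ± 0.36, adjusted p 0.0295, and 0.124 without the block) and the follicle-homing receptor Cxcr5 (-4.03 ± 0.47, adjusted p 0.000269, and 0.128 without the block). The latter 2 were named after their values were seen. By DESeq2 without the block Ptger2 passed as well (adjusted p 0.00604), and Cxcr5 did not (adjusted p 0.0844). Ptger2 shares 246 and 144 exonic bases with Gm17173 and Gm49364, and Cxcr5 shares 110 with Bcl9l, all on the opposite strand. Cxcr5 had 11.8, 1.33 and 0.902 CPM in the CD25-high set and 67.9, 30.1 and 44.0 CPM in the CD25-low set, with library 1 the highest of each group. Without CD25-high library 1 it passed also in the fit with no block (-5.39 ± 0.47, adjusted p 0.00064), and without both libraries numbered 1 Ptger2 did not pass with the block (adjusted p 0.105). The most abundant receptor per length was Cxcr3, a chemokine receptor of Th1 cells, at 92.5 ± 34.8 against 98.5 ± 12.0 CPM (-0.09 ± 0.29, edgeR adjusted p 0.942). The median log2 fold change of the 29 receptors was -0.09.

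Among effectors and regulators downstream of G proteins, 0 of 31 tested genes passed by edgeR without the block, beside 0.655% of all genes, and 0 by DESeq2. Of the 31, 5 had an unadjusted p under 0.05, beside 11.1% of all genes. With the replicate block 2 rose, beside 1.73% of all genes. These were Pik3r5, the regulatory subunit that couples PI3K gamma to G protein beta and gamma subunits (113 ± 27.9 against 47.3 ± 27.5 CPM, 1.46 ± 0.28, adjusted p 0.00797, and 0.323 without the block), and Rasgrp2, the exchange factor that activates Rap1 (129 ± 45.8 against 56.4 ± 29.6 CPM, 1.30 ± 0.19, adjusted p 0.00122, and 0.33 without the block). Rasgrp2 shares 265 exonic bases with Gm14965 on the opposite strand. In CD25-low cells the library numbered 1 had the lowest value of both genes, 15.5 CPM for Pik3r5 and 22.8 CPM for Rasgrp2. Without both libraries numbered 1, both passed also with no block (adjusted p 0.0236 for Pik3r5 and 0.00677 for Rasgrp2). The most abundant gene per length was Prkar1a, a regulatory subunit of protein kinase A, at 513 ± 186 against 532 ± 54.9 CPM.

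**Figure D5:**
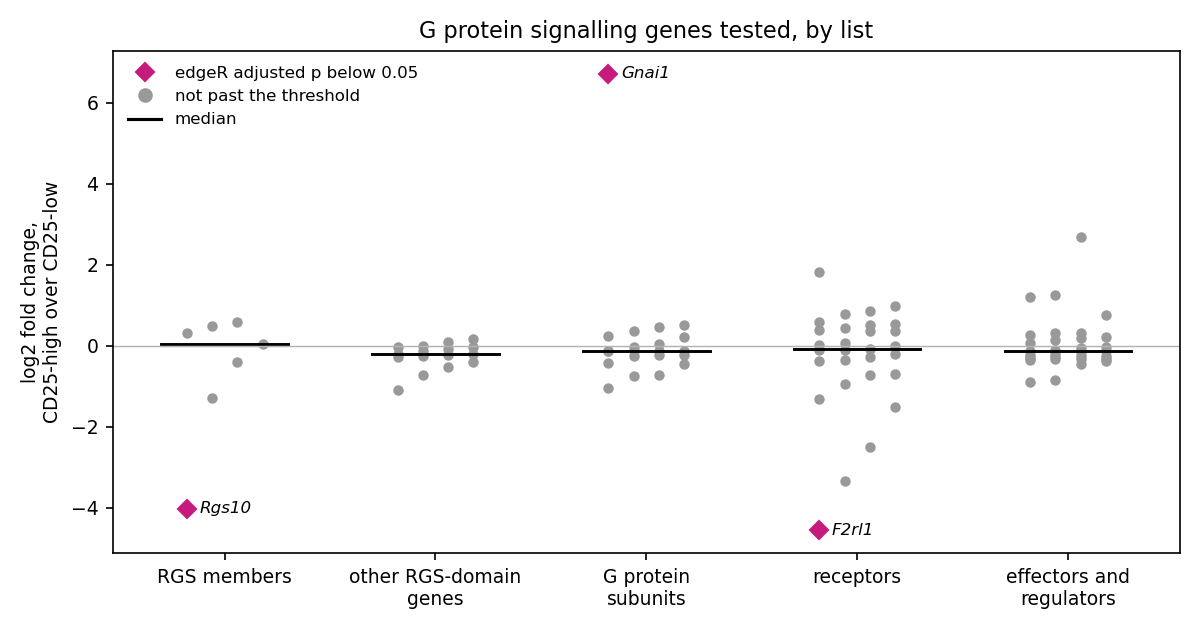
Log2 fold change of CD25-high over CD25-low cells (y axis) for the tested genes of each list, 1 point per gene, with diamonds for genes below an edgeR adjusted p of 0.05 and bars for the list's median. Rgs10, Gnai1 and F2rl1 are past the threshold, and the fitted point of Gnai1 depends on the prior count because CD25-low libraries held 2 reads in all.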

How the data were processed

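The deposited table holds raw counts, unnormalized whole numbers of reads by Ensembl gene, per the file headers and values. Per the labels' protocols, libraries were made using NuGEN's Ovation RNA-Seq System v2. The submitters' processing notes name the aligner Novoalign, the package DESeq2 and 2 builds, mm10 and hg19. How reads were counted, with which annotation and strand setting, is not given in the sources used here. Of 15445 gene identifiers, whose smallest row total is 10, 15169 were named through GENCODE M21 (GRCm38).

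The quasi-likelihood test of edgeR 4.0.16 (R 4.3.3) was run on 12987 genes kept by filterByExpr (default settings), using TMM factors and the group as the only term. The Benjamini-Hochberg adjustment ran over all genes tested, and an adjusted p under 0.05 was called. SE was derived from the F statistic. CPM divides the counts by library sizes adjusted with TMM, and the centred log2 CPM used a prior count of 2. The fit was tested on simulated data. Replicate libraries all differed by more than sampling noise.

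Same-numbered libraries deviated together over the 2000 most variable genes (correlations of 0.34, 0.19 and 0.16 for numbers 1, 2 and 3, each over 0.1). No label gives a pairing, so it rests on the counts alone and entered only the block, the number term and the within-pair differences. The main test left it out. Pairs of unlike number reached 0.13 (number 2 of the high group, number 3 of the low group) and 0.07 (the reverse). For numbers 2 and 3 the counts therefore hardly separate like from unlike pairs.

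The members and lists were chosen with earlier results of these data known. Named are the members, Il2ra, called genes of each list or else the 2 with the smallest p, the most abundant gene of each list per length (for markers of other cells, by CPM), and the 4 nearest profiles of the 2 members with the largest fold changes. Other genes, among them Ikzf2, Foxp3 and Capg as markers, were named after their values were seen. The promoter motifs, too, were chosen with these results known. Alternatives were DESeq2 1.42.0, size factors by RLE, unscaled library sizes, the unfiltered table, a filter set higher (CPM of at least 1 in 3 libraries, mean count of at least 10), the replicate block and each library left out in turn. The fits without both libraries numbered 1 were added after the data were seen.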

Additional observations from a re-analysis of the deposited data

How the results depend on the processing

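Rgs10 kept its sign and passed the threshold in all 14 alternative fits, with log2 fold changes from -4.58 to -3.51, and no other member passed in any. Rgs3, Rgs16 and Rgs19 kept their sign in all 14, Rgs2 in 13, Rgs1 in 11 and Rgs14 in 9. Without CD25-high library 1, Rgs1 and Rgs2 had log2 fold changes of -0.23 and -0.23.

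Among all genes tested, 85 passed (20 higher, 65 lower). DESeq2 called 376, the replicate block 601, and leaving out 1 library gave 22 to 130. Without both libraries numbered 1 there were 380, and 461 with the replicate block. The count of G protein subunits went from 1 to 2 with the replicate block, and to 0 to 1 with 1 library left out. Receptors went from 1 to 2 with DESeq2, to 3 with the replicate block, to 0 to 3 with 1 library left out, and to 3 without both libraries numbered 1, with or without the block. Effectors went from 0 to 2 with the replicate block and to 2 without both libraries numbered 1, with or without the block. The pairing by replicate block changed no call among the members. The cause of these changes was not tested. Counts of 25 to 63 reads for Rgs10 and 25 to 50 for Rgs16 limit the precision of their CD25-high levels.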
